A study of Mus musculus with 10 samples.

Results

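M3 is a mesenchymal mammary tumour cell line, and E is the epithelial tumour cell line from which its tumour had been grown. M3 was set against E with the 4 arrays that the labels give them, 2 per line, of 10 arrays in the series. The E line was derived from a mammary adenocarcinoma that arose on its own in a female of the strain FVB/N-TgN(MMTVneu)202Mul, in which the neu oncogene is driven by the MMTV promoter, active in mammary epithelium. The M3 line came from a tumour that relapsed in a female FVB/N mouse after E cells had been injected. The other 6 arrays are of M1, M2 and M4, lines of the same origin as M3, and are used here only to show where M3 stood apart from them. All lines were grown in serum-containing RPMI medium to the same stated confluence. Each of these is 1 line, M3 comes from 1 relapse tumour, ages are not given, and the labels do not say whether the lines are clones or whether the 2 arrays of a line are separate cultures, so p-values here measure only the spread between 2 arrays, which may be technical.

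In an epithelial-mesenchymal transition (EMT), cells lose the junctions that hold an epithelial sheet together and take on a motile, matrix-producing state. Transcription factors of the Snail, Zeb and Twist families bind short E-box sequences in promoters of epithelial genes and repress them. In mammary tumours driven by neu, relapse after the loss of neu is known to be accompanied by this transition, and cells that complete it often express matrix, protease and cytokine genes otherwise typical of fibroblasts.

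Each value deposited by the authors is the signal of a probe set, a linear intensity and not a count, and the number of arrays limits the precision. Changes are given as log2 differences of (signal + 32), M3 minus E, with a standard error (SE) from a limma fit of all 5 lines. Calls needed an adjusted p under 0.05 over 14840 genes and a 2-fold difference or more, and "rose", "fell", "higher in M3" and "lower in M3" of a gene refer to such calls. Differences of genes near a signal of 0 in 1 line are understated and depend on the added 32. The arrays were not on 1 brightness: the trimmed mean signal was 200 and 198 on the M3 arrays and 299 and 264 on the E arrays. The 2 arrays of M3 correlated at 0.993 across probe sets, those of E at 0.992, and an M3 with an E array at 0.873 to 0.876. The ratio of 3' to 5' signal of Actb, a measure of RNA integrity, was 1.29 and 1.38 on the M3 arrays, 1.16 to 1.25 on those of M1, M2 and M4, and 1.24 and 1.22 on those of E. The same ratio for Gapdh was lowest in M3, at 0.790 and 0.768 on the M3 arrays, 0.813 to 0.853 on those of M1, M2 and M4, and 0.828 and 0.829 on those of E, so the 2 control transcripts went opposite ways.

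Of the 14840 genes tested, 4081 differed between M3 and E, which is 27.5% of them. In M3, 1143 genes were higher (7.7%) and 2938 were lower (19.8%). The median gene changed by -0.25 under the deposited scaling, and the split depended on it: after quantile normalization the median was 0.06, with 1785 genes higher (12%), 1733 lower (11.7%) and 23.7% called in all. The 1143 genes called higher under the deposited scaling were all called higher after quantile normalization too, 1733 genes were called lower under both, and 0 were called in opposite directions.

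**Figure D1:**
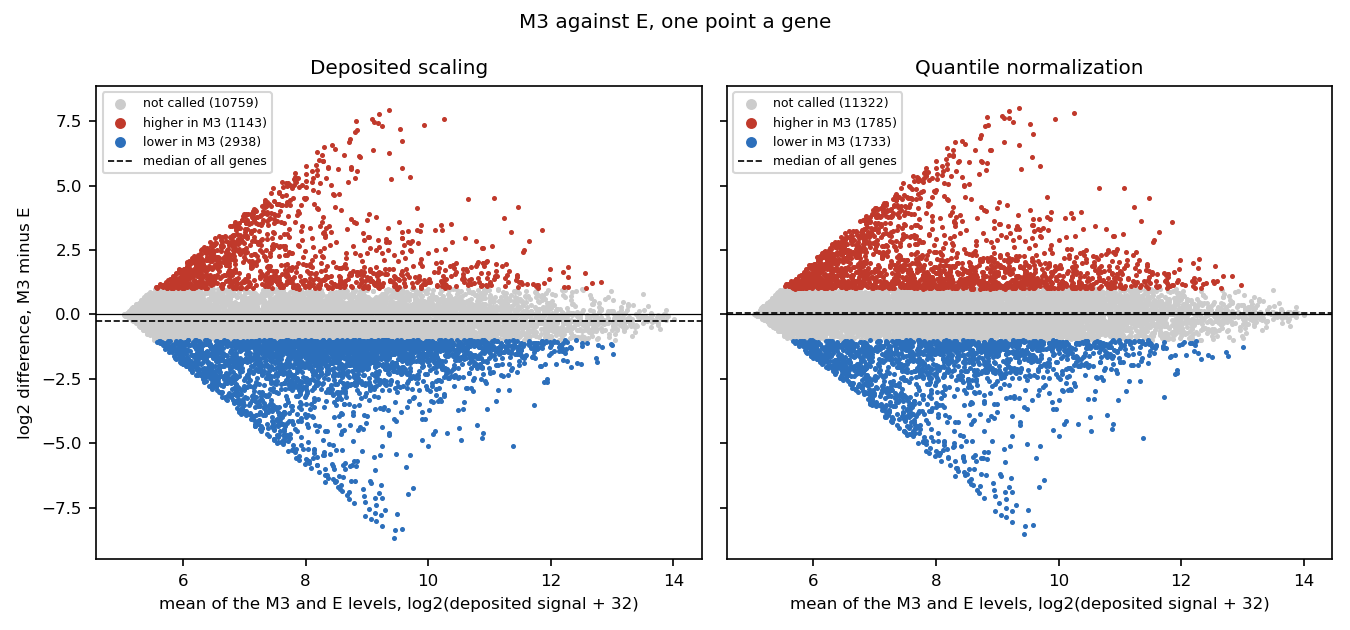
Each point is 1 of 14840 genes, with the mean of its M3 and E levels on the x axis, log2(deposited signal + 32), and its log2 difference, M3 minus E, on the y axis, under the deposited scaling (left) and after quantile normalization (right). Red points are called higher and blue points lower in M3. The dashed line, the median gene, lies at -0.25 on the left and 0.06 on the right, and the number of blue points is 2938 on the left and 1733 on the right.

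Epithelial adhesion genes were lower in M3 almost without exception. Of 34 tested genes of epithelial adhesion and junctions, 33 fell, 0 rose and 1 was not called, with a median of -3.83 (all genes -0.25, with 19.8% lower), and the same numbers were called after quantile normalization. Epcam, a surface adhesion protein of epithelia, had signals of 2.1 and 4.2 on the M3 arrays, against 10675 and 10046 on the E arrays. Spint2, an inhibitor of membrane serine proteases, had 2.1 and 0.7 in M3, against 7802 and 7122 in E. In both genes the M3 signals were near 0 and the groups did not overlap, as was so for 11362 of the 14840 genes tested. The log2 difference was -8.21 ± 0.17 for Epcam and -7.81 ± 0.18 for Spint2 (SE, 2 arrays each; adjusted p = 3.77e-38 and 5.44e-37 in limma). With the mean of its probe sets, the Epcam difference was -5.28.

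The promoters of Epcam and Spint2 are shown because they hold the E-box core bound by the Snail and Zeb proteins. Each window runs from 250 bases before to 50 bases after the start of the gene, from RefSeq on GRCm38.p6, and capitals mark each match to CACCTG or to its reverse complement CAGGTG. The Epcam window is chr17:87635729-87636028 on the plus strand, and that of Spint2 is chr7:29281928-29282227 on the minus strand; they hold 2 and 3 matches.
Epcam: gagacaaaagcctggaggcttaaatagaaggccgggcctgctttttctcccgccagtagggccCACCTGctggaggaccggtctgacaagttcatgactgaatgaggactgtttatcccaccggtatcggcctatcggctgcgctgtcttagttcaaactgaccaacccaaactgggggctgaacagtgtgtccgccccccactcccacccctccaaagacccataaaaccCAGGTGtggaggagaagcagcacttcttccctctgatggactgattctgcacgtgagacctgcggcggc
Spint2: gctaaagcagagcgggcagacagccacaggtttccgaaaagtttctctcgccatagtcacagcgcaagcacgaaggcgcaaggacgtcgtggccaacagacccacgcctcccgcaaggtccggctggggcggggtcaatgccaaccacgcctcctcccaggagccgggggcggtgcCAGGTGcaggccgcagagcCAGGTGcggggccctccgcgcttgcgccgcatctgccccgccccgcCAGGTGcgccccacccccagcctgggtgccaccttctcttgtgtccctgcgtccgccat
The same letters occur in 22.3% of the 11895 tested genes with a promoter window. Only 20 of the 34 list members had a window, too few to give a share for the list. A match is a description and not evidence of binding.

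The tight junction claudins Cldn3 and Cldn7 followed the same pattern. Cldn3 had signals of 4.2 and 8.7 on the M3 arrays, against 7129 and 7020 on the E arrays, a difference of -7.53 ± 0.19. Cldn7 had 8.4 and 8.1 in M3, against 6257 and 6158 in E, a difference of -7.28 ± 0.17. Cdh1, which encodes E-cadherin, the cadherin of adherens junctions, kept a low signal in M3: it had 74.4 and 68.3 in M3, against 3788 and 3215 in E, a difference of -5.09 ± 0.18. The Cdh1 signal averaged 16.5 in M1, 41.7 in M2 and 5.45 in M4, so M3 was highest among the M lines, with a difference from their mean of 1.02 ± 0.14 (adjusted p = 9.31e-08, limma). That call lay at the 2-fold minimum and was lost without M1 replicate 2 (0.99), without M2 replicate 2 (0.97), without M3 replicate 1 (0.98) and without M4 replicate 1 (0.96), as well as without the M1 line (0.99) or the M4 line (0.79), and M3 taken against M2 alone was not called (0.49).

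Keratins, the intermediate filaments of epithelia, did not move as 1 group. Of 8 tested, 3 fell, 0 rose and 5 were not called, beside 7.7% higher and 19.8% lower over all genes. Krt18 had signals of 6.7 and 6.9 on the M3 arrays, against 12784 and 12439 on the E arrays, a difference of -8.35 ± 0.17, and Krt7 had 21 and 3.6 in M3, against 7518 and 6944 in E, a difference of -7.38 ± 0.21. Krt8, the usual filament partner of Krt18, stayed bright in M3, with 5576 and 5482 in M3 and 8477 and 7441 in E and a difference of -0.52 ± 0.13 that was not called. Of this pair, then, Krt18 fell and Krt8 was not called. Krt8 averaged 57 in M1, 7947 in M2 and 4538 in M4, so its level varied among the M lines. M3 was above their mean by 1.91 ± 0.10, but below that of M2 and M4 without the M1 line (-0.12, not called). Krt14, a basal keratin, was near background in both lines, at 2.7 and 1.8 in M3 and 5.3 and 4.6 in E, and was not called, with a difference of -0.11 ± 0.21 whose sign turned with median centring (0.11).

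Regulators of the epithelial state were lower too. Of 20 tested transcription and splicing regulators of epithelia, 15 fell, 1 rose and 4 were not called, with a median of -1.78. Over all genes 19.8% fell, with a median of -0.25. After quantile normalization 11 of the 20 fell, beside 11.7% of all genes. Elf5, a transcription factor of the secretory mammary lineage, had signals of 3.4 and 2.7 on the M3 arrays, against 5061 and 4838 on the E arrays, a difference of -7.15 ± 0.18. Tfap2c, a factor of luminal identity, differed by -7.03 ± 0.18, and Esrp1, which directs epithelial splicing, by -5.48 ± 0.19. Esr1, which encodes oestrogen receptor alpha, was the 1 that rose, with 232 and 235 in M3 and 6.4 and 1.9 in E and a difference of 2.88 ± 0.17, or of 1.33 with the mean of its 3 probe sets. Cd24a, a surface glycoprotein of luminal cells, had 17.5 and 21.4 in M3, against 7151 and 7056 in E, a difference of -7.12 ± 0.17.

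**Figure D2:**
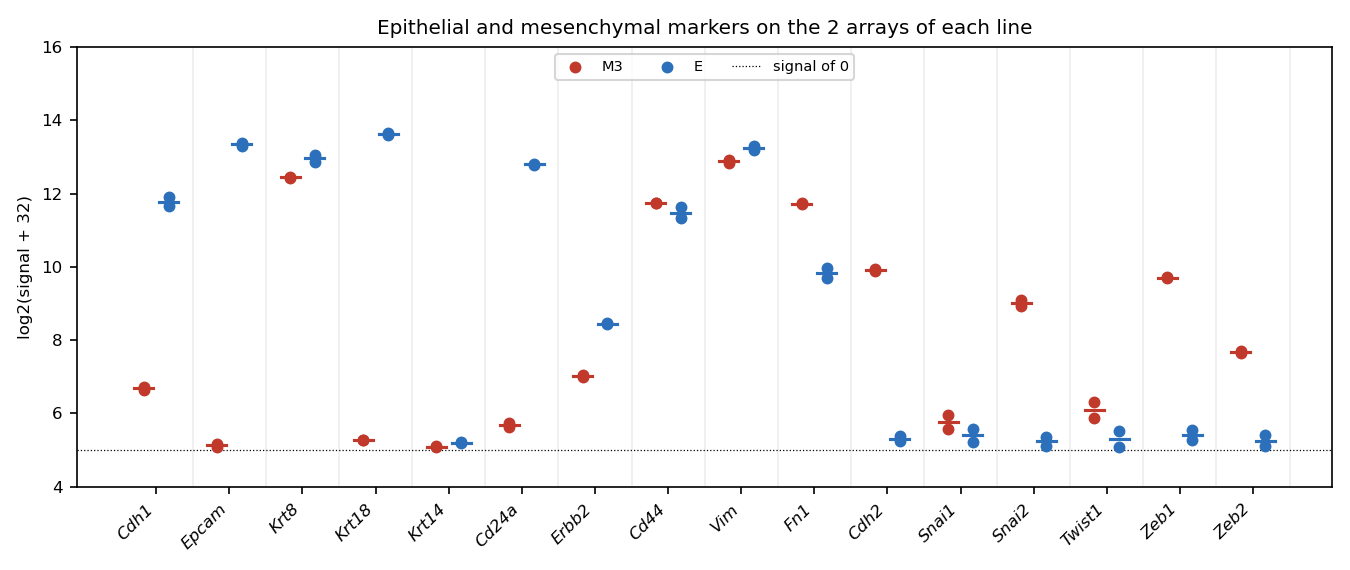
Signals of 16 epithelial and mesenchymal markers, as log2(signal + 32), with 1 point for each of the 2 arrays of M3 (red, left) and E (blue, right), and bars at the line means. Epcam, Krt18 and Cd24a sit near the dotted line of a signal of 0 in M3, while Krt8, Vim and Cd44 are bright in both lines.

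The 17 tested EMT transcription factors divided into 8 that rose, 4 that fell and 5 without a call, with a median of 0.80. The shares over all genes were 7.7% higher and 19.8% lower. Zeb1, a zinc finger repressor of epithelial genes, had signals of 796 and 814 on the M3 arrays, against 7.1 and 15 on the E arrays, a difference of 4.29 ± 0.16, and its relative Zeb2 had 177 and 169 in M3 and 10.5 and 2.6 in E, a difference of 2.42 ± 0.18. Only 1 of the 3 Zeb1 probe sets was called, and their mean gave 1.82. Snai2, a Snail family repressor, had 515 and 457 in M3, against 2.8 and 8.8 in E, a difference of 3.78 ± 0.16. Twist2, a helix-loop-helix factor, differed by 4.38 ± 0.17, and the mesenchymal homeobox gene Prrx2 by 4.07 ± 0.16. All 5 had signals of 28.1 or less in E. They did not overlap between the lines, as was so for 11362 of the 14840 genes tested.

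Snai1 and Twist1, close relatives of factors that rose, were not called. Snai1 had 15.3 and 30 in M3 and 5.6 and 15.9 in E, which overlap, and a difference of 0.35 ± 0.19. Twist1 had 47.6 and 27.2 in M3 and 14.1 and 1.7 in E, a difference of 0.80 ± 0.20, which was called without E replicate 1 (1.03) or without M3 replicate 2 (1.01). Snai1 averaged 297 in M1, 87.5 in M2 and 74.2 in M4, and M3 was lower than their mean by a difference of -1.57 ± 0.15; Snai2 stood at -1.53 ± 0.13 in the same comparison. The list members that fell included Id1 and Id2, dominant-negative partners of helix-loop-helix factors and known targets of BMP signalling. Id1 had signals of 229 and 223 on the M3 arrays, against 6507 and 6009 on the E arrays, a difference of -4.61 ± 0.15, and Id2 had 180 and 189 in M3, against 5353 and 5488 in E, a difference of -4.66 ± 0.15. Tcf3, which encodes the E proteins that Id proteins bind, fell as well, by a difference of -1.77 ± 0.17.

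Vim and Cd44, commonly used to mark mesenchymal cells, were bright in both lines. Vim, the mesenchymal intermediate filament, had 7652 and 7324 in M3 and 9980 and 9308 in E, a difference of -0.36 ± 0.08 that was not called and whose sign turned when signals were scaled to the hybridization controls (0.07). Cd44, a hyaluronan receptor, had 3428 and 3372 in M3 and 3123 and 2538 in E, a difference of 0.27 ± 0.12 that was not called. Other mesenchymal genes did separate the lines. S100a4, which binds calcium and myosin and is linked to motility, had 10283 and 10128 in M3, against 11.2 and 8.7 in E, with a difference of 7.93 ± 0.11. Cdh2, which encodes N-cadherin, had 955 and 921 in M3, against 9.5 and 5.8 in E, a difference of 4.61 ± 0.17. Fn1, which encodes fibronectin, had 3325 and 3380 in M3, against 972 and 790 in E, a difference of 1.90 ± 0.12; 1 of its 2 probe sets was called. Of 13 tested mesenchymal markers 10 rose and 0 fell, and of 10 fibroblast markers 6 rose and 0 fell, with medians of 2.42 and 2.26, beside 7.7% higher, 19.8% lower and a median of -0.25 over all genes.

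Among collagens and the enzymes that assemble them, rises outnumbered falls. Of 27 tested, 15 rose, 4 fell and 8 were not called, with a median of 1.31. The shares over all genes were 7.7% higher and 19.8% lower. Lox, a copper oxidase that cross-links collagen, had signals of 5188 and 5717 on the M3 arrays, against 12.2 and 1.1 on the E arrays, a difference of 7.16 ± 0.14, or of 4.68 with the mean of its 3 probe sets. Dcn, which encodes the collagen-binding proteoglycan decorin, had 7653 and 7471 in M3, against 21.1 and 3.9 in E, a difference of 7.44 ± 0.13, in 1 of 2 probe sets, whose mean gave 4.09. Col8a1, a network-forming collagen, differed by 5.13 ± 0.15. The basement membrane collagens went the other way: Col4a1 had 8.5 and 12.6 in M3, against 3396 and 3106 in E, a difference of -6.27 ± 0.17, and Col4a2 differed by -5.44 ± 0.19. Loxl3, a lysyl oxidase relative, fell too, by a difference of -2.80 ± 0.16.

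Col3a1 and Col1a2, chains of fibrillar collagens, were lower in M3 than in the mean of the other relapse lines. Col3a1 had 71.7 and 72.2 in M3, against 10.8 and 9.2 in E, a difference of 1.31 ± 0.16 whose call was lost with the mean of its probe sets (0.75), while it averaged 902 in M1, 1368 in M2 and 5763 in M4. Col1a2 had 85.7 and 97.4 in M3, against 40.2 and 21.9 in E, a difference of 0.98 ± 0.16 that was not called, although it was called after quantile normalization, without E replicate 1 (1.20) and without M3 replicate 1 (1.05). The Col1a2 signal averaged 9558 in M1, 156 in M2 and 6751 in M4. Against the mean of the 3 other lines, M3 was lower in both genes, by differences of -4.24 ± 0.13 for Col3a1 and -4.22 ± 0.13 for Col1a2, although M3 against M2 alone was not called for Col1a2 (-0.60). Of the 27 genes, 9 were lower and 1 was higher in M3 than in the other M lines, where 4.7% and 1.92% of all genes were.

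Matrix glycoproteins gave a mixed picture, with 11 of 28 higher in M3, 6 lower and 11 not called. The shares over all genes were 7.7% higher and 19.8% lower. Tgfbi, an integrin-binding matrix protein, had 1391 and 1473 in M3, against 8.3 and 3.1 in E, a difference of 5.28 ± 0.15. Sparc, a collagen-binding glycoprotein, had 4229 and 4526 in M3, against 405 and 319 in E, a difference of 3.49 ± 0.11, and Fbln5, an elastic fibre protein, differed by 3.43 ± 0.16. Among those that fell, Ccn2, a matricellular growth factor, had 68.7 and 77 in M3, against 2219 and 2025 in E, a difference of -4.36 ± 0.17. The laminin chains Lamb3 (-3.60 ± 0.18) and Lama4 (-3.15 ± 0.17), parts of basement membranes, were lower too.

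Proteases and their inhibitors rose without exception among those called. Of 26 tested, 14 rose, 0 fell and 12 were not called, with a median of 1.40, and 15 rose after quantile normalization. The shares over all genes were 7.7% higher and 19.8% lower, with 12% higher after quantile normalization. Without M3 replicate 2, 1 of the 26 fell. Mmp13, a collagenase, had signals of 7374 and 7300 on the M3 arrays, against 5.1 and 13.8 on the E arrays, a difference of 7.48 ± 0.16. It averaged 91 in M1, 5029 in M2 and 1354 in M4, and M3 was above their mean by 2.96 ± 0.13, or by 1.48 without the M1 line, and M3 against M2 alone was not called (0.56). Htra1, a secreted serine protease, had 8870 and 8908 in M3, against 30.9 and 28.5 in E, a difference of 7.18 ± 0.11. Timp3, a matrix-bound inhibitor of metalloproteinases, had 1364 and 1369 in M3 and 6.8 and 2.5 in E, a difference of 5.26 ± 0.18.

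Integrins and the cytoskeleton changed in both directions. For both lists, the shares over all genes were 7.7% higher and 19.8% lower. Of 17 integrins, 4 were higher and 6 lower, and after quantile normalization 5 were higher and 4 lower. Itgb7, a beta chain best known on lymphocytes, had 2147 and 2094 in M3, against 5.8 and 6.8 in E, a difference of 5.81 ± 0.16, while Itga8 had 406 and 380 in M3, against 5782 and 5065 in E, a difference of -3.68 ± 0.15. Itgb3 (-2.37 ± 0.20), a chain of luminal progenitors, fell, and Itga5 (2.47 ± 0.17), a chain of the fibronectin receptor, rose, although the mean of its 4 probe sets gave 1.26. Of 23 cytoskeletal genes, 7 rose, 2 fell and 14 were not called. Cav1, the coat protein of caveolae, had 4914 and 5100 in M3, against 31.1 and 25.5 in E, a difference of 6.39 ± 0.12. The tropomyosins moved apart: Tpm2 differed by 4.54 ± 0.17 (2.75 with the mean of its 4 probe sets), and Tpm1 by -1.22 ± 0.11, a fall that was not called after quantile normalization (-0.84).

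**Figure D3:**
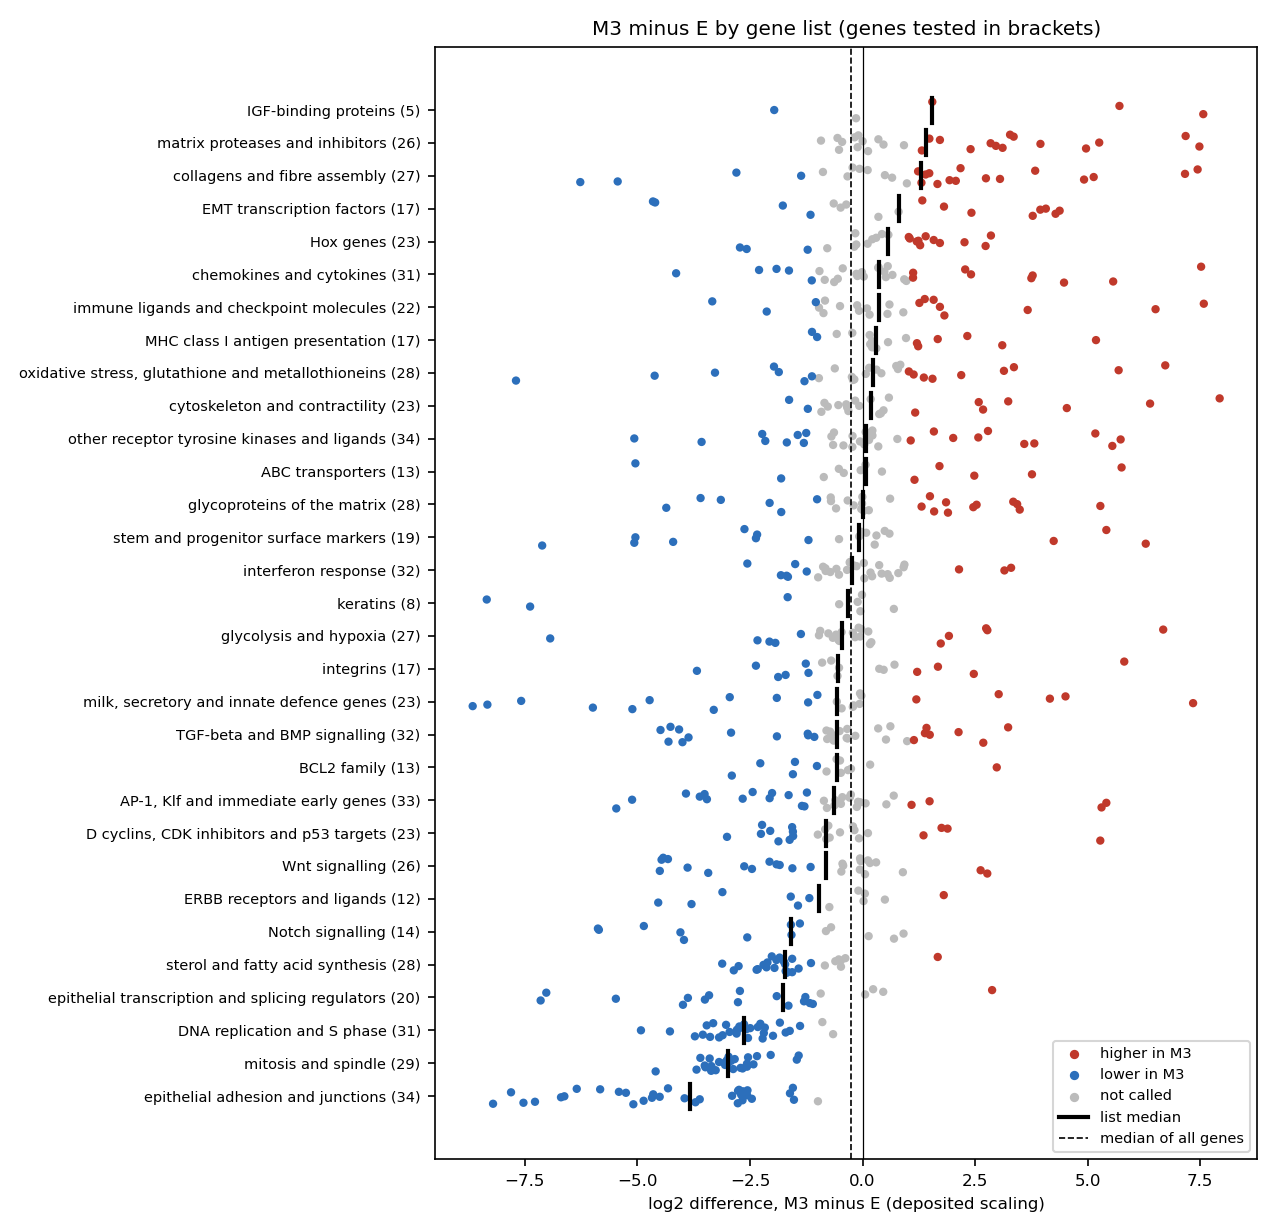
Log2 differences, M3 minus E, of the tested members of each gene list, 1 point a gene, with red points called higher, blue points lower and grey points not called in M3; thick bars are list medians and the dashed line is the median of all genes, -0.25. Epithelial adhesion, mitosis and DNA replication have the lowest medians, at -3.83, -2.99 and -2.63.

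Cell cycle genes were lower in M3 almost without exception, both against E and against the other relapse lines. Of 31 tested genes of DNA replication and S phase, 29 fell, 0 rose and 2 were not called, with a median of -2.63. Of 29 tested genes of mitosis and the spindle, all 29 fell, with a median of -2.99. Against E, 19.8% of all genes were lower. After quantile normalization 28 of the first list and 28 of the second fell. Against the mean of M1, M2 and M4, 30 of 31 and 29 of 29 were lower in M3, with medians of -1.97 and -2.48, beside a median of -0.07 over all genes and 4.7% of all genes lower.

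Tk1, the thymidine kinase of the S phase salvage pathway, had signals of 50.6 and 44.6 on the M3 arrays, against 2481 and 2284 on the E arrays, a difference of -4.92 ± 0.15. It averaged 1630 in M1, 1352 in M2 and 1042 in M4, and M3 was lower than their mean by a difference of -4.08 ± 0.12 (adjusted p = 9.47e-31, limma). Rrm2, the regulated subunit of ribonucleotide reductase, had 375 and 366 in M3, against 7992 and 7568 in E, a difference of -4.28 ± 0.11. Mcm6, a subunit of the replicative helicase, had 271 and 232 in M3, against 3762 and 3644 in E, a difference of -3.72 ± 0.14. Ccne2, an E-type cyclin of S phase entry, had 30.1 and 23.8 in M3, against 334 and 332 in E, a difference of -2.63 ± 0.16. In each of the 4 genes both M3 arrays lay far below both E arrays and below the means of M1, M2 and M4.

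The mitotic genes gave the same picture. Mki67, the proliferation marker Ki-67, had signals of 102 and 102 on the M3 arrays, against 3387 and 3045 on the E arrays, a difference of -4.60 ± 0.15. Ccnb2, a mitotic cyclin, had 132 and 148 in M3, against 2260 and 2108 in E, a difference of -3.69 ± 0.15. Birc5, which encodes survivin of the chromosomal passenger complex, had 183 and 187 in M3, against 2331 and 2171 in E, a difference of -3.40 ± 0.13, and averaged 3452 in M1, 2942 in M2 and 2491 in M4. Nusap1, a spindle protein, differed by -3.60 ± 0.15. The signals of these genes in M3 were all above 100.

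The same lists were counted in the other relapse lines. Of the 31 replication genes, 1 was lower than in E in M1, 4 in M2 and 8 in M4, and of the 29 mitotic genes 2 were lower in M1, 3 in M2 and 6 in M4; these comparisons share the E arrays with that of M3. Taken directly, M3 was lower than M1 in 30 replication genes, than M2 in 30 and than M4 in 26, and in 29, 29 and 28 mitotic genes. On the M3 arrays the ratio of 3' to 5' signal was the highest of the series for Actb and the lowest for Gapdh, and the part of RNA integrity in the result was not tested. With signals scaled to the hybridization controls, 28 of the 31 replication genes fell in M3 against E.

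The promoters of Mcm6, Mki67 and Ccnb2 are shown because they hold motifs long tied to the timing of cell cycle genes. Capitals mark matches to TTTNGCGC, a form of the E2F site, in Mcm6, and to TTTGAA, the cell cycle genes homology region, in Mki67 and Ccnb2, on either strand. The windows are chr1:128359656-128359955 on the minus strand, chr7:135716330-135716629 on the minus strand and chr9:70421505-70421804 on the minus strand (RefSeq, GRCm38.p6). They hold 3, 2 and 2 matches, and matches in Mcm6 overlap on opposite strands.
Mcm6: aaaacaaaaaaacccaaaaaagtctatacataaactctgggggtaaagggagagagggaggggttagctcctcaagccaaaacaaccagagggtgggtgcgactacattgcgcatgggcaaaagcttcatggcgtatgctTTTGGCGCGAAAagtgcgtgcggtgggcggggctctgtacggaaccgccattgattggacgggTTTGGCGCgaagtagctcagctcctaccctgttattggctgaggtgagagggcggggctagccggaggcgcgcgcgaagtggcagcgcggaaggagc
Mki67: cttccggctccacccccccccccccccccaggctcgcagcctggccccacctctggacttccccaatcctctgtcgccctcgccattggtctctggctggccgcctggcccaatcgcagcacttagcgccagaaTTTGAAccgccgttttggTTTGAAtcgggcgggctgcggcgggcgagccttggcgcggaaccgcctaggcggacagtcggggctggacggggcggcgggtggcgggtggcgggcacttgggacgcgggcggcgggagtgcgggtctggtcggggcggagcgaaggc
Ccnb2: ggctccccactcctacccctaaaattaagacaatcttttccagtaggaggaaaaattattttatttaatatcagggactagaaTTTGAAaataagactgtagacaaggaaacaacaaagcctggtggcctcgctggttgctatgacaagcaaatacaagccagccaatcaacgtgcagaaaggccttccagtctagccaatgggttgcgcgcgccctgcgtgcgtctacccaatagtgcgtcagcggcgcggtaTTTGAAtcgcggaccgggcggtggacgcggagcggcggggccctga
The E2F letters occur in 10 of the 26 replication genes with a window (38.5%), beside 2.6% of all 11895 genes. The letters TTTGAA occur in 14.7% of all genes. Only 23 of the 29 mitotic genes had a window, too few to give a share for that list. A match is a description and not a site.

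Upstream regulators of the cycle moved in both directions. Of 23 D cyclins, CDK inhibitors and p53 targets, 4 rose, 9 fell and 10 were not called. The shares over all genes were 7.7% higher and 19.8% lower. Ccnd2, a D-type cyclin, had 2915 and 2602 in M3, against 50.4 and 30.4 in E, a difference of 5.28 ± 0.15. Trp53inp1, a p53-induced stress gene, had 2772 and 2908 in M3, against 783 and 856 in E, a difference of 1.75 ± 0.16, and averaged 719 in M1, 998 in M2 and 1148 in M4. Sesn2, a stress-induced regulator of growth signalling, differed by 1.89 ± 0.21. The CDK inhibitor gene Cdkn1b, which encodes p27, was not high in M3: it had 75.1 and 97.2 in M3, against 842 and 997 in E, a difference of -3.01 ± 0.17, in 1 of 2 probe sets, whose mean gave -1.89. Cdkn2d (-2.26 ± 0.16) and the pocket protein gene Rbl1 (-2.23 ± 0.16) fell as well.

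Genes of sterol and fatty acid synthesis were lower in M3 too, against E and against the other relapse lines. Of 28 tested genes, 21 fell, 1 rose and 6 were not called, with a median of -1.71, and 20 fell after quantile normalization. Over all genes 19.8% fell, and 11.7% after quantile normalization. Idi1, an isomerase of the isoprenoid pathway, had signals of 284 and 249 on the M3 arrays, against 2296 and 1976 on the E arrays, a difference of -2.86 ± 0.14, and averaged 3326 in M1, 2906 in M2 and 1930 in M4. Dhcr7, the last enzyme of cholesterol synthesis, had 163 and 183 in M3, against 1376 and 1321 in E, a difference of -2.75 ± 0.16. Srebf1, which encodes a transcription factor of lipid synthesis, had 365 and 329 in M3, against 3526 and 3003 in E, a difference of -3.12 ± 0.16, but at 527 in M1, 410 in M2 and 349 in M4 it did not set M3 apart from the other M lines (-0.26, not called). The member that rose was Fads1, a fatty acid desaturase, with 773 and 722 in M3 and 220 and 206 in E and a difference of 1.67 ± 0.16, in 1 of 2 probe sets; the call was lost with their mean (0.80).

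Against the mean of M1, M2 and M4, 20 of the 28 genes were lower in M3 and 0 were higher, with a median of -1.40, beside 4.7% lower, 1.92% higher and a median of -0.07 over all genes. Taken directly, M3 was lower than M1 in 20, than M2 in 21 and than M4 in 18. Against E, 4 of the 28 were lower and 2 higher in each of M1, M2 and M4, comparisons that share the E arrays.

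The promoter of Hmgcs1, which encodes the synthase ahead of the rate-limiting step of the pathway, is shown as the 1 list member whose window held a match to TCACNCCAC (capitals), a form of the sterol regulatory element. The window is chr13:119690101-119690400 on the plus strand (RefSeq, GRCm38.p6).
Hmgcs1: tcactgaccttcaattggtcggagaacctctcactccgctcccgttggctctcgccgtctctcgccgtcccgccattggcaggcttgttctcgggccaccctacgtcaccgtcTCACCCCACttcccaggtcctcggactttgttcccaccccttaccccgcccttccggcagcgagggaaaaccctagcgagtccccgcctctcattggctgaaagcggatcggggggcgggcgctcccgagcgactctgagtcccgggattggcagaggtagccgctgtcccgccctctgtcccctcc
The letters occur in 1.4% of all genes with a window. Only 22 of the 28 members had a window, so no share is given for the list.

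**Figure D4:**
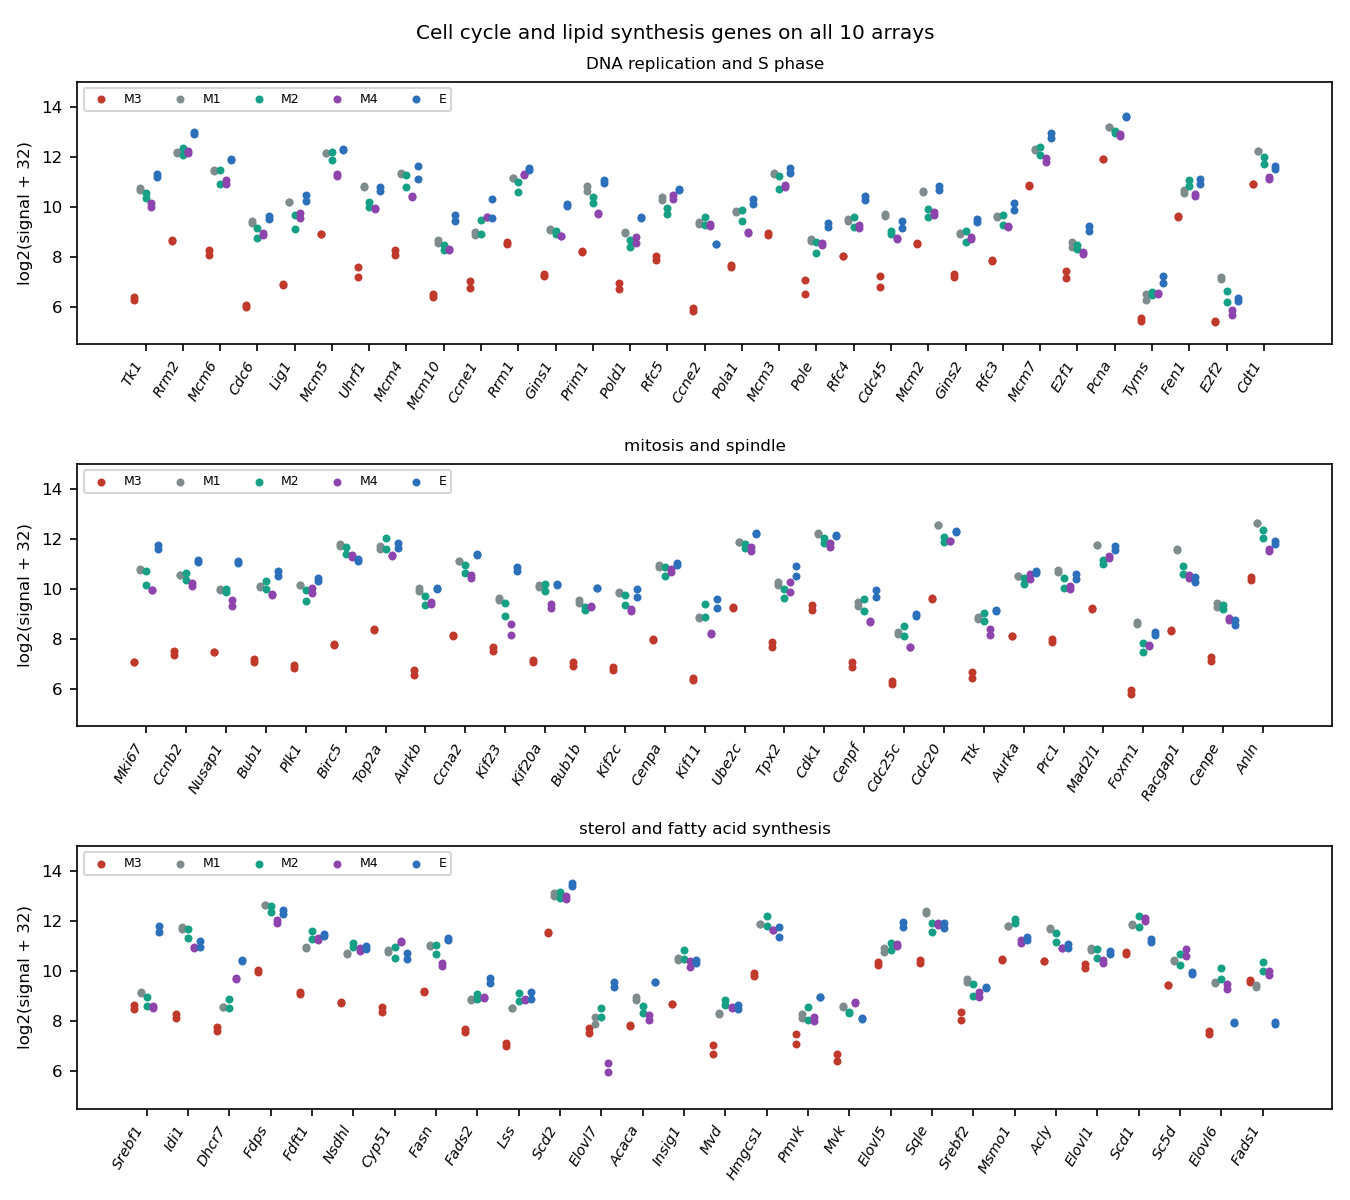
Signals of DNA replication, mitosis and lipid synthesis genes as log2(signal + 32), with 1 point for each array of M3 (red), M1 (grey), M2 (green), M4 (purple) and E (blue), and genes ordered by the difference M3 minus E. In the first 2 panels the red points lie below the others for nearly every gene, as for Tk1 with 50.6 and 44.6 in M3 and 2481 and 2284 in E.

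Growth factor receptors and ligands changed in both directions. Of 12 ERBB receptors and ligands, 1 rose, 6 fell and 5 were not called, beside 7.7% higher and 19.8% lower over all genes. After quantile normalization 2 rose and 4 fell. Erbb2, the mouse neu gene, had 95.4 and 99.4 in M3, against 315 and 321 in E, a difference of -1.43 ± 0.17 that was not called after quantile normalization (-0.92); whether its probes see the transgene is not stated in the sources used here. Erbb3, a kinase-impaired partner of Erbb2, had 230 and 215 in M3, against 3622 and 3402 in E, a difference of -3.80 ± 0.17, and averaged 26.4 in M1, 94.2 in M2 and 98.5 in M4, so that M3 was higher than the other M lines (1.37 ± 0.14). That call was lost without the M1 line (0.99) and with the mean of its 2 probe sets (0.68). The ligand Tgfa differed by -4.54 ± 0.19, and the ligand Nrg1, which rose, by 1.80 ± 0.18. Tgfa was called in 1 of its 3 probe sets, whose mean gave -1.97, and the mean for Erbb3 against E was -2.36.

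Of 34 other receptor tyrosine kinases and ligands, 10 rose and 8 fell, beside 7.7% higher and 19.8% lower over all genes. Axl, a receptor often found on mesenchymal tumour cells, had 1796 and 1894 in M3, against 3.6 and 13.2 in E, a difference of 5.55 ± 0.15. The collagen receptors moved apart: Ddr2 had 1307 and 1353 in M3 and 10.8 and 1.4 in E, a difference of 5.17 ± 0.17, and Ddr1 had 926 and 907 in M3 and 4548 and 4279 in E, a difference of -2.23 ± 0.16. The platelet-derived growth factor receptors Pdgfra (3.59 ± 0.16) and Pdgfrb (3.81 ± 0.18), typical of fibroblasts, rose; the mean of probe sets gave -1.40 for Ddr1 and 2.04 for Pdgfra. Kit, the stem cell factor receptor found on luminal progenitors, fell, with 9.7 and 9.6 in M3 and 1532 and 1221 in E and a difference of -5.07 ± 0.19. Fgf7, a growth factor made by stroma, differed by 5.73 ± 0.14. Among 5 IGF-binding proteins 3 rose and 1 fell: Igfbp4 had 7280 and 7462 in M3, against 13.7 and 1.3 in E, a difference of 7.57 ± 0.12, Igfbp6 differed by 5.71 ± 0.12 and Igfbp7, whose call was lost with the mean of its 2 probe sets (0.60), by 1.55 ± 0.17, and Igfbp5, which fell, by -1.96 ± 0.21.

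The Notch signalling genes that were called were all lower. Of 14 tested, 9 fell, 0 rose and 5 were not called, with a median of -1.59, beside 19.8% lower over all genes. After quantile normalization 8 fell and 2 rose, beside 11.7% lower and 12% higher over all genes. Without E replicate 2, or without M3 replicate 1, 1 of the 14 rose. The target genes carried the largest differences. Hes1, a repressor induced by Notch, had 16.5 and 34.4 in M3, against 3413 and 3110 in E, a difference of -5.86 ± 0.19. Hey1, its relative, had 10.2 and 16.9 in M3, against 2844 and 2450 in E, a difference of -5.88 ± 0.18, and the feedback inhibitor Nrarp differed by -4.86 ± 0.18.

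In TGF-beta and BMP signalling, 7 of 32 genes rose and 11 fell, beside 7.7% higher and 19.8% lower over all genes. After quantile normalization 10 of the 32 rose and 8 fell. The ligand Tgfb1 had 515 and 615 in M3, against 66.7 and 55.1 in E, a difference of 2.68 ± 0.17, in 1 of 2 probe sets; the call was lost with their mean (0.90). The ligand Tgfb3 had 56.7 and 46.6 in M3, against 1693 and 1559 in E, a difference of -4.31 ± 0.17. The activin chains also went opposite ways, with Inhba at 3.23 ± 0.19 and Inhbb at -4.27 ± 0.18. The pseudoreceptor Bambi (-4.49 ± 0.18) fell and the ligand Bmp4 (2.13 ± 0.18) rose. Of 26 Wnt genes, 2 rose and 13 fell, and 3 rose and 12 fell after quantile normalization. Both that rose under the deposited scaling were ligands, Wnt5a (2.77 ± 0.18) and Wnt10a (2.62 ± 0.17). The ligand Wnt7b (-4.50 ± 0.19) and the secreted antagonist Sfrp1 (-4.47 ± 0.19) fell. The mean of its 4 probe sets gave 1.55 for Wnt5a.

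Immediate early genes are switched on within minutes of growth factor stimulation. Of 33 AP-1, Klf and immediate early genes, 4 rose, 14 fell and 15 were not called. Over all genes 7.7% rose and 19.8% fell. After quantile normalization 6 of the 33 rose and 11 fell, beside 12% higher and 11.7% lower over all genes. Fos, a subunit of AP-1, had signals of 86.1 and 100 on the M3 arrays, against 5734 and 5294 on the E arrays, a difference of -5.47 ± 0.16. Egr1, a zinc finger factor induced through MAP kinase signalling, had 147 and 136 in M3, against 6414 and 5602 in E, a difference of -5.12 ± 0.15. Spry1, a feedback inhibitor of the same signalling, differed by -3.92 ± 0.18. The AP-1 subunit Fosl1 rose, with 1695 and 1707 in M3 and 21.9 and 3.5 in E and a difference of 5.31 ± 0.16, as did the reprogramming factor gene Klf4, with a difference of 5.41 ± 0.16. M3 was below the mean of the other M lines in Fos (-1.69 ± 0.13) and Egr1 (-1.99 ± 0.12).

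Several inflammatory genes rose. Of 31 genes listed as chemokines and cytokines, 9 rose, 5 fell and 17 were not called. The 9 include an enzyme gene, Ptgs2, and over all genes 7.7% rose and 19.8% fell. Ptgs2, the inducible cyclooxygenase, had signals of 6179 and 6082 on the M3 arrays, against 2.8 and 0.4 on the E arrays, a difference of 7.52 ± 0.12. Ccl2, a monocyte chemoattractant, had 7698 and 7451 in M3, against 316 and 304 in E, a difference of 4.47 ± 0.11, and Ccl7, a related chemokine, differed by 5.57 ± 0.14. Csf3, the granulocyte growth factor, fell but stayed bright, with 1965 and 1922 in M3 and 7641 and 7164 in E and a difference of -1.91 ± 0.13. The receptor antagonist Il1rn (-4.14 ± 0.17) and the cytokine Lif (-2.30 ± 0.16) fell.

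Of 22 immune ligands and checkpoint molecules, 8 rose, 3 fell and 11 were not called, beside 7.7% higher and 19.8% lower over all genes. Lgals1, which encodes galectin-1, had 16994 and 16644 in M3, against 54.8 and 57.4 in E, a difference of 7.58 ± 0.09. The leukocyte adhesion receptors Vcam1 and Icam1 rose: Vcam1 had 3007 and 2972 in M3 and 1.4 and 1 in E, a difference of 6.51 ± 0.15, and Icam1 had 486 and 456 in M3 and 14.8 and 1.5 in E, a difference of 3.67 ± 0.19. Icam1 averaged 4.05 in M1, 306 in M2 and 10.1 in M4, and M3 was above their mean by 2.66 ± 0.15, although M3 against M2 alone was not called (0.59). Cd55, which protects cells from complement, fell, with 0.8 and 1.5 in M3 and 298 and 309 in E and a difference of -3.34 ± 0.20.

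Antigen presentation by MHC class I showed 6 of 17 genes higher, 2 lower and 9 not called. The shares over all genes were 7.7% higher and 19.8% lower. Psmb8, an immunoproteasome subunit, had 1570 and 1477 in M3, against 10.6 and 10.9 in E, a difference of 5.18 ± 0.16, or of 3.28 with the mean of its 2 probe sets. The class I gene H2-M3 (3.10 ± 0.16) and Nlrc5 (2.33 ± 0.18), a transactivator of class I genes, rose too. The 2 that fell, Pdia3 (-1.12 ± 0.10) and Psme1 (-1.01 ± 0.12), were not called after quantile normalization, and Psme1 also not without E replicate 1 (-0.93) or M3 replicate 2 (-0.95). Interferon response genes were called about as often as all genes: 3 of 32 were higher, 6 lower and 23 not called, which is 28.1% called beside 27.5% of all genes, and their median of -0.23 was close to -0.25 over all genes; 5 were higher without E replicate 1 or without M3 replicate 2, and 8 after quantile normalization. The interferon-induced GTPase genes Ifi47 (3.30 ± 0.16), Gbp2 (3.15 ± 0.17) and Gbp6 (2.14 ± 0.21) rose, and Rtp4 (-2.56 ± 0.17), Irf9 (-1.81 ± 0.18) and Irf7 (-1.69 ± 0.19) fell; Irf9 and Irf7 encode transcription factors of the response.

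Secretory and innate defence genes changed in both directions. Of 23 tested, 5 rose, 11 fell and 7 were not called, beside 7.7% higher and 19.8% lower over all genes. Pglyrp1, which encodes a peptidoglycan recognition protein, had 2.5 and 2.4 in M3, against 13746 and 14067 in E, with a difference of -8.66 ± 0.18, the largest fall among called genes with a gene name. Wfdc18, a whey acidic protein relative, had 16.2 and 5.2 in M3, against 13659 and 13596 in E, a difference of -8.33 ± 0.17, and Cd177 differed by -7.58 ± 0.18. Saa3, an acute phase protein, had 12383 and 12492 in M3, against 52.3 and 38.1 in E, a difference of 7.34 ± 0.13, and averaged 457 in M1, 8544 in M2 and 7194 in M4; M3 was called against M1 and not against M2 or M4 taken alone. The secreted protease inhibitor gene Slpi (4.16 ± 0.10) and Cp (4.51 ± 0.14), which encodes the copper carrier ceruloplasmin, rose.

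Metabolic and stress genes were mixed. For both lists here, the shares over all genes were 7.7% higher and 19.8% lower. Of 28 genes of oxidative stress, glutathione and metallothioneins, 9 rose and 7 fell. Hmox1, the inducible haem oxygenase, had 5494 and 5350 in M3, against 72.8 and 74.8 in E, a difference of 5.69 ± 0.13, and the metallothionein gene Mt2 differed by 6.72 ± 0.13. Gpx2, an epithelial glutathione peroxidase, had 3.9 and 10.4 in M3, against 7534 and 8647 in E, a difference of -7.70 ± 0.18, and the glutathione transferase gene Gsta4 differed by -4.62 ± 0.15. Of 27 glycolysis and hypoxia genes, 5 rose and 5 fell. Ndrg1, a gene induced by hypoxia, had 4206 and 4161 in M3, against 1.9 and 18 in E, a difference of 6.68 ± 0.17; Bnip3, another such gene, differed by 2.77 ± 0.14. Aldoc, an aldolase, had 20.3 and 21.6 in M3, against 6619 and 6307 in E, a difference of -6.94 ± 0.17.

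For the lists that follow here, the shares over all genes were 7.7% higher and 19.8% lower. Of 13 ABC transporters, 5 rose and 2 fell. Those that rose included Abcb1b (3.76 ± 0.17) and Abcb1a (2.48 ± 0.17), the mouse genes of the drug efflux pump P-glycoprotein, and Abcc4 (5.75 ± 0.17); Abcb1b was called in 1 of 2 probe sets, whose mean gave 1.98. Abcg2, an efflux pump of stem-like cells, fell, with 26.3 and 26.2 in M3 and 1994 and 1796 in E and a difference of -5.05 ± 0.17. Of 13 BCL2 family genes, 1 rose and 5 fell. The inhibitors of cell death Bcl2 (-2.90 ± 0.19) and Bcl2l1 (-1.55 ± 0.16) fell, and the mean of its 5 probe sets gave -1.84 for Bcl2. The pro-death member Bok (2.98 ± 0.18) rose, and another pro-death member, Bik (-2.27 ± 0.20), fell. Of 19 stem and progenitor markers, 3 rose and 8 fell, and the 3 include Klf4, described above, which encodes a transcription factor and not a surface protein. Cd34 had 2526 and 2551 in M3, against 1.2 and 0.5 in E, a difference of 6.29 ± 0.14, and Procr, a marker of a mammary stem cell population, differed by 4.25 ± 0.17. Of 23 Hox genes, which give cells their position along the body, 11 rose and 3 fell. Hoxc9 (2.85 ± 0.17) and Hoxa9 (2.73 ± 0.17) were among those that rose and Hoxa5 (-2.72 ± 0.18) among those that fell. Only 5 of the 23 had a mean signal over 100 in M3 and 2 in E, so most of these genes were dim.

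Among all genes, the 15 largest rises had log2 differences of 6.68 to 7.93 and E signals of 59.8 or less, and the 15 largest falls had differences of -8.66 to -7.28 and M3 signals of 21 or less. Rises not yet named were Vnn1 (7.77 ± 0.17), Gpnmb (7.31 ± 0.14), Ppic (7.09 ± 0.15) and Glipr1 (6.79 ± 0.14), of which Glipr1 was called in 1 of 2 probe sets, with a mean of 3.52. Vnn1 encodes a pantetheinase, Gpnmb a transmembrane glycoprotein of lysosomes and melanosomes, and Ppic a prolyl isomerase. Falls not yet named were Atp1b1 (-8.02 ± 0.17), a subunit of the sodium pump, Cnmd (-7.94 ± 0.17), which encodes chondromodulin, St8sia6 (-7.79 ± 0.18), a sialyltransferase, Fxyd3 (-7.76 ± 0.17), a regulator of the sodium pump, and Tesc (-7.31 ± 0.18). All 30 were also called in the same direction in each of M1, M2 and M4 against E, in comparisons that share the E arrays.

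The comparison of M3 with the mean of M1, M2 and M4 asked what M3 does not share with lines of the same origin. It called 982 genes (6.62%), 285 higher (1.92%) and 697 lower (4.7%) in M3; after quantile normalization 6.56% were called, with 417 higher (2.81%) and 557 lower (3.75%). Of the 1143 genes higher in M3 than in E, 188 were also higher than in the other M lines, while 76 were lower. Of the 2938 lower than in E, 457 were also lower than in the other M lines, while 20 were higher. Both comparisons use the M3 arrays.

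Vnn1 had the largest rise over the other M lines, with 8575 and 8670 in M3, averages of 53.4 in M1, 1780 in M2 and 85.7 in M4, and 11.4 and 4.4 in E. The difference from the mean of M1, M2 and M4 was 5.04 ± 0.13 (adjusted p = 2.05e-32, limma), and its relative Vnn3 stood at 2.84 ± 0.15. Car6, a secreted carbonic anhydrase, had 4352 and 4191 in M3, averages of 302 in M1, 37.8 in M2 and 75.2 in M4, and 552 and 495 in E, a difference from the other M lines of 4.99 ± 0.14. Avil, an actin-binding protein of the villin family, had 1438 and 1378 in M3, averages of 72.8 in M1, 10.9 in M2 and 13.7 in M4, and 19.8 and 9.2 in E, a difference of 4.63 ± 0.16. M3 was the highest of the 5 lines in each of these genes.

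Some of the genes high in M3 among the relapse lines were also present in E. Ccl20, a chemokine of mucosal epithelia, had 585 and 478 in M3, averages of 7.45 in M1, 6.35 in M2 and 2.35 in M4, and 996 and 950 in E. It was above the other M lines by 3.91 ± 0.14 and was not called against E (-0.84 ± 0.17). Mamdc2 had 654 and 642 in M3, averages of 26.6 in M1, 12.4 in M2 and 1.9 in M4, and 116 and 99.7 in E, a difference of 3.94 ± 0.14. The others of the 10 largest rises were Cdsn (3.89), which encodes corneodesmosin of skin, Mmp13 (2.96), the potassium channel gene Kcnma1 (2.83) and Taf7l (2.73).

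The 10 largest falls against the other M lines included Col3a1, Col1a2, Tk1, Rrm2, Birc5 and Ccne2, described above. Of the others, Tspan11, a tetraspanin, had 1 and 3.3 in M3, averages of 695 in M1, 186 in M2 and 884 in M4, and 4.8 and 2.7 in E, a difference of -3.94 ± 0.14. Thbs2, the matrix protein thrombospondin-2, had 12.8 and 1.8 in M3, averages of 110 in M1, 133 in M2 and 5830 in M4, and 2.6 and 4.1 in E, a difference of -3.73 ± 0.14, or of -1.97 without the M4 line. Both were near 0 in M3 and in E. Crip1, a LIM domain protein, had 255 and 250 in M3, averages of 5675 in M1, 1627 in M2 and 4294 in M4, and 35.3 and 52.5 in E, a difference of -3.60 ± 0.12, and Fstl1, a secreted follistatin relative, stood at -3.53 ± 0.14.

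**Figure D5:**
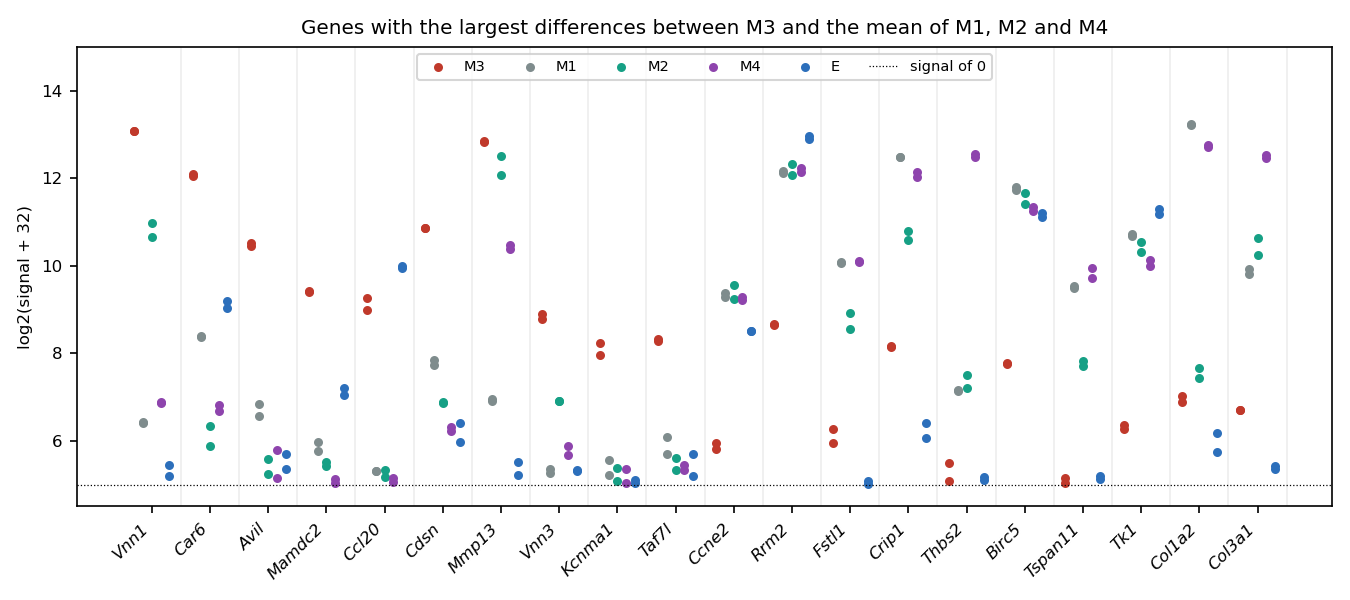
Signals, as log2(signal + 32), of the 10 genes with the largest positive and the 10 with the largest negative differences between M3 and the mean of M1, M2 and M4, with 1 point for each array of M3 (red), M1 (grey), M2 (green), M4 (purple) and E (blue). The differences run from 5.04 for Vnn1 at the left to -4.24 for Col3a1 at the right.

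Markers of cells that a relapse tumour could carry into culture were checked as summed signals. The 11 epithelial markers summed to 5749 to 5807 on the M3 arrays, most of it Krt8, against 49651 to 52858 on the E arrays. The 13 mesenchymal markers summed to 24948 to 25596 in M3 and 10189 to 11100 in E, and the 10 fibroblast markers to 11184 to 11432 in M3 and 355 to 475 in E. Mesenchymal tumour cells and fibroblasts share these genes, so the lists cannot tell them apart. The 13 leukocyte markers summed to 820 to 947 in M3 and 8258 to 8278 in E, most of the E sum being Cd14, which had 222 and 263 in M3, against 7965 and 7947 in E. Cd14 was the only member that fell, while 3 rose and 9 were not called, so the sum followed Cd14 and not the list. The list median was 0.24, beside -0.25 over all genes. The 8 endothelial markers summed to 195 to 204 in M3 and 160 to 250 in E. Fewer cells of a type and less RNA per cell cannot be told apart on such arrays.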

How the data were processed

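Total RNA of 5 mouse mammary tumour cell lines was biotin-labelled and hybridized to 10 arrays, 2 per line. The values used are the deposited signals of 45101 probe sets, which are linear intensity values; the submitters' processing notes name GCOS 1.3, and no source used here gives the signal algorithm, scaling target or background correction. The 64 control probe sets were left out, and genes were named from probe sets with a single symbol (34945; 932 had several and 9160 none). The deposited scaling was kept, 32 was added and log2 taken. A filter kept the 32978 probe sets that exceeded the 40th percentile of the array on 2 or more arrays, and the brightest of these by mean signal stood for its gene, giving 14840 genes. Of the 99 called named genes with several probe sets, all were called the same way in 68, some were not called in 31, and 0 had opposite calls.

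With limma 3.58.1 (R 4.3.3; lmFit and eBayes with a trend), a mean was fitted per line and contrasts taken for M3 minus E and M3 minus the mean of M1, M2 and M4, with Benjamini-Hochberg adjustment over all 14840 genes. The 5 lines shared 5 residual and 41.4 prior degrees of freedom. The procedure was tested on simulated data. The array number limits the precision.

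The members and the gene lists were chosen with earlier results of these data known, and so support nothing independently. Named were 16 markers, the 15 highest and 15 lowest called differences from E, up to 3 called rises and 3 called falls per list, and the 10 highest and 10 lowest called differences from the other M lines. Of 833 list symbols, 733 were tested. Promoters come from RefSeq on GRCm38.p6. Same-numbered arrays of M3 and E did not deviate together (correlation -0.02), so the numbers were not used as pairs. Alternatives were other scalings (quantile, median, hybridization controls), added constants, filters, the mean of probe sets, fits of M3 and E alone or without a trend, a replicate block, and leaving out arrays or lines.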

Additional observations from a re-analysis of the deposited data

Results flagged for a closer look

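The 66 genes below are those described above whose difference from E passed limma's test against the mean difference of the other relapse lines (adjusted p under 0.05 and at least 2-fold, as for 6.62% of all genes). The E arrays cancel in this test, so the value in brackets is the log2 difference between M3 and the mean of M1, M2 and M4. A difference from that mean can come from 1 or 2 of the 3 lines, so M3 was also set against each line alone, with the same call: 33 of the 66 genes were called the same way against all 3 lines, 22 against 2 of them and 11 against 1.

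In the 33 genes called against all 3 lines, cell cycle genes were lower in M3, namely Tk1 (-4.08), Birc5 (-3.77), Rrm2 (-3.52), Ccne2 (-3.46), Mki67 (-3.31), Mcm6 (-3.06), Ccnb2 (-2.97), Nusap1 (-2.31), Cdkn2d (-1.58) and Rbl1 (-1.37), while Trp53inp1 (1.58) was higher. Idi1 (-3.17), an isoprenoid enzyme, was lower. The matrix genes Col3a1 (-4.24), Thbs2 (-3.73), Fstl1 (-3.53), Loxl3 (-1.56) and Lama4 (-1.24) were lower, as were Id1 (-2.20), Igfbp7 (-2.29), Egr1 (-1.99), Fos (-1.69), Cd14 (-1.09), Tspan11 (-3.94) and Crip1 (-3.60). Those higher in M3 were Vnn1 (5.04), Car6 (4.99), Avil (4.63), Mamdc2 (3.94), Ccl20 (3.91), Cdsn (3.89), Vnn3 (2.84), Kcnma1 (2.83) and Taf7l (2.73).

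Of the 22 genes called against 2 lines, M3 was not called against M2 alone in Col1a2 (-4.22), Mmp13 (2.96), Icam1 (2.66), Cp (1.74), Gpnmb (1.59), Nlrc5 (1.57), Snai2 (-1.53), Gbp6 (1.35), Abcc4 (1.26) and Cdh1 (1.02). M3 was not called against M1 alone in Id2 (-1.84), Ndrg1 (1.72), Prrx2 (-1.41), Dhcr7 (-1.31), Sesn2 (1.12), Tpm2 (-1.06) and Pdgfra (-1.03). It was not called against M4 alone in Ccn2 (-1.67), Snai1 (-1.57), Erbb3 (1.37), Tcf3 (-1.09) and Fbln5 (1.02).

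For the other 11 genes M3 was called against a single line, and the call against each of the remaining lines was not met. A missed call is not an absent difference. Igfbp6 was at -0.87 against M2 and -0.97 against M4, and Itgb7 at 0.92 against M2, while Krt8 was below M2 (-0.51). The line was M1 for Saa3 (2.00), Krt8 (1.91), Krt18 (-1.36), Itgb7 (1.24), Igfbp6 (-1.09), Itga5 (-1.07), Cdkn1b (-1.05) and Tpm1 (-1.05), M2 for Gsta4 (-1.24) and Cd24a (-1.13), and M4 for Ppic (1.04). Against E, Krt18 stood at -8.35 in M3, -4.44 in M1, -8.11 in M2 and -8.42 in M4.

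Of the 66 calls, 22 were lost when 1 line was left out. Without M1 the difference was 0.67 for Saa3, -0.12 for Krt8, -0.08 for Krt18, 0.76 for Itgb7, -0.92 for Igfbp6, -0.58 for Itga5, -0.64 for Cdkn1b, -0.68 for Tpm1, 0.84 for Gpnmb, 0.93 for Gbp6, -0.78 for Tcf3 and 0.99 for Erbb3, Cdh1 and Fbln5, with -0.99 for Ccn2. Without M2 it was -0.57 for Cd24a, -0.68 for Gsta4, 0.83 for Fbln5, -0.94 for Pdgfra and -0.97 for Tpm2, and without M4 it was 0.69 for Ppic, 0.79 for Cdh1, -0.66 for Pdgfra, -0.96 for Dhcr7 and 0.98 for Sesn2. Leaving out 1 array lost the calls of 8 genes, all within 1.02 to 1.09 in size: Cdh1, Cd14 (-0.98, without M3 replicate 1), Cdkn1b (-0.92, without M3 replicate 1, and -0.99, without M2 replicate 1), Itga5 (-0.90) and Tpm2 (-0.95), both without M3 replicate 2, Ppic (0.99, without M2 replicate 2), Pdgfra (-0.95 without M2 replicate 1, -0.96 without M3 replicate 1 and -0.9997 without M4 replicate 1) and Fbln5 (0.97 to 0.99, without M2 or M3 replicate 2 or M4 replicate 1). After quantile normalization 8 calls, all of genes lower in M3, were lost, namely Cd14, Cdkn1b, Igfbp6, Itga5, Pdgfra, Tcf3, Tpm1 and Tpm2 (-0.95 to -0.86). With the mean of probe sets, 6 calls were lost: Cd24a (-0.98), Cdkn1b (-0.62), Erbb3 (0.68), Itga5 (-0.66), Lama4 (-0.86) and Tpm1 (-0.94).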

How the results depend on the processing

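Counts of called genes depended on the scaling, the added constant and the fold minimum; the cause was not tested beyond what each change does by construction. For M3 against E, quantile normalization gave 1785 higher and 1733 lower in place of 1143 and 2938, and scaling to the hybridization controls gave 1899 lower. A larger added constant gave 724 higher, and no fold minimum gave 2375 higher and 6247 lower. For M3 against the mean of M1, M2 and M4, a smaller added constant gave 481 higher and 1181 lower in place of 285 and 697, a larger constant gave 131 and 388, no fold minimum gave 1933 and 3669, and leaving out the M2 line gave 439 higher. Leaving out 1 array at a time gave 1094 to 1247 higher and 2669 to 3318 lower against E, with the extremes without E replicate 1 or 2, and 245 to 338 higher and 631 to 787 lower against the other M lines, with the extremes without M2 replicate 1 or 2. With the replicate number as a block, 1143 genes were higher and 2938 lower than in E. Against the other M lines 285 were higher and 697 lower. With 2 arrays per line a block leaves every log2 difference as it was, so the equal counts are no evidence on pairing. The numbers are not known to pair the arrays.

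Of the 184 named genes called against E, 167 stayed called in the same direction in every alternative run, 178 in every scaling and 181 without any single array. Of the 69 called against the other M lines, these numbers were 42, 60 and 60. Several alternatives leave each log2 difference from E unchanged by construction. These are leaving out M1, M2 or M4 arrays or lines, fitting M3 and E alone, dropping the trend, and the block. Each gave 1143 genes higher and 2938 lower than in E, so they are no check of these calls. Leaving out an E array likewise cannot change a difference from the other M lines. The direction of a difference from E turned for genes that were not called: Krt14 with median centring (0.11), Tspan11 with median centring (0.15), Vim with hybridization control scaling (0.0669), and Thbs2 with the mean of its probe sets (-0.0651) and without M3 replicate 1 (-0.0644; 0.34 without M3 replicate 2). Against the other M lines, Krt8 turned without the M1 line (-0.12). Signals near background, as for most of the largest differences, set only a lower limit on the size of a change.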
